A study of Homo sapiens with 4 samples.

Results

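The 10 genes described here are the 5 NF-kB subunits (NFKB1, NFKB2, RELA, RELB and REL) and 5 genes that act back on them (NFKBIA, NFKBIE, NFKBIZ, BCL3 and TNFAIP3), chosen by name from the platform annotation. They are 10 of 18132 genes with a probe set annotated to a single symbol, and 19 of 44988 such probe sets. Their levels were compared 36 hours after transfection between SCC-9 cells given a mimic of miR-585-5p (2 arrays, called mimic) and SCC-9 cells given the small RNA miR-NC as a control (2 arrays). SCC-9 is an established human tongue squamous carcinoma line. A dose of 30 nM is given in a protocol that all 4 arrays share, and no other treatment is labelled in either group. Nothing in the labels states that arrays of 1 group are separate cultures. The p-values therefore rest on the spread between these arrays alone, pooled in part over genes, and that spread may be technical. All cells come from 1 line.

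NF-kB is a family of dimeric transcription factors. In resting cells the dimers are held in the cytoplasm by inhibitor of NF-kB (IkB) proteins, and signals from cytokine and Toll-like receptors lead an IkB kinase complex to mark these inhibitors for destruction, which frees the dimers to enter the nucleus. Many genes of the pathway's own inhibitors are among the genes that NF-kB turns on, which makes them a negative feedback, and in squamous epithelia the pathway is best known for chemokine and cytokine genes and for survival signals. The messenger RNAs measured here report neither the location of the dimers nor the amount of any protein.

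The transfected strand is shown because its seed is what a microRNA uses to find its targets. RefSeq gives hsa-miR-585-5p on chr5:169263649-169263670, minus strand of GRCh38.p14, with the seed (bases 2 to 8) in capitals below. The exact chemistry and sequence of the mimic used are not given in the sources used here.
hsa-miR-585-5p: cUAGCACAcagauacgcccaga

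The promoters of these genes are shown because NF-kB feedback runs through kB sites there. RefSeq's promoter table (GRCh38.p14, 250 bases before to 50 after an annotated start) held 13 windows for 8 of the 10 genes, and RELB and NFKBIE are named only. The kB consensus, searched on both strands, was matched in 9 of the 13 windows, against 11.3% of all 35116 windows in the table. By gene this was 7 of the 8, for which no share over all genes was computed. A narrower motif, also searched on both strands, fixes the variable purine of the consensus as A and its variable pyrimidines as T, so each match to it is also a match to the consensus. It was matched in 6 of the 13 windows, against 1.61% of all windows, and these lay in 6 genes. The genes were chosen as NF-kB family and feedback genes, so these shares describe the choice of genes. TNFAIP3 and NFKBIA, the genes with the largest rise and with the most probe sets that rose, are given whole, with capitals marking matches to the kB consensus.
TNFAIP3, chr6:137867009-137867308, plus strand: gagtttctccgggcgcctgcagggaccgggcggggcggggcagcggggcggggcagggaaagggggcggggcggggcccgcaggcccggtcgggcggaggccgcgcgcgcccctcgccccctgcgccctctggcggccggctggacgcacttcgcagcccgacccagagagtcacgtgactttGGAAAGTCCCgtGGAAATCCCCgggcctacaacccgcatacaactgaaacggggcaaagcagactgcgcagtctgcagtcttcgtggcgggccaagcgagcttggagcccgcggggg
NFKBIA, chr14:35404700-35404999, minus strand: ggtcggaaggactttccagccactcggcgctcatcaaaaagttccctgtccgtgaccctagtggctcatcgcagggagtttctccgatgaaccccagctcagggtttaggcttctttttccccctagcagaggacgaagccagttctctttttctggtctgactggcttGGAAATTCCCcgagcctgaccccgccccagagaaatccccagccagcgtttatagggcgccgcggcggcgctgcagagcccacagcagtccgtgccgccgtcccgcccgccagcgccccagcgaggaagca

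The matches began 67 and 55 bases before the annotated start in TNFAIP3 and 81 bases before it in NFKBIA. Further genes are given as the match and its neighbouring bases, again in capitals, to set a gene that rose (NFKBIZ) beside genes that did not pass the test (REL, NFKB1 and BCL3).
NFKBIZ, chr3:101827755-101827788, plus strand: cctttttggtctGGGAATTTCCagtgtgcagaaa
REL, chr2:60881515-60881549, plus strand: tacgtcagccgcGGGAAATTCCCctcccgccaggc
NFKB1, chr4:102501298-102501331, plus strand: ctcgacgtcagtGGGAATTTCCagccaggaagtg
BCL3, chr19:44748698-44748731, plus strand: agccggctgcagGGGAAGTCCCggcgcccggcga
A match was thus present in 3 genes that rose and in 4 that did not pass, counting NFKB2, and neither RELA window held one. A match is a description of letters in a window and not a bound site.

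**Figure D1:**
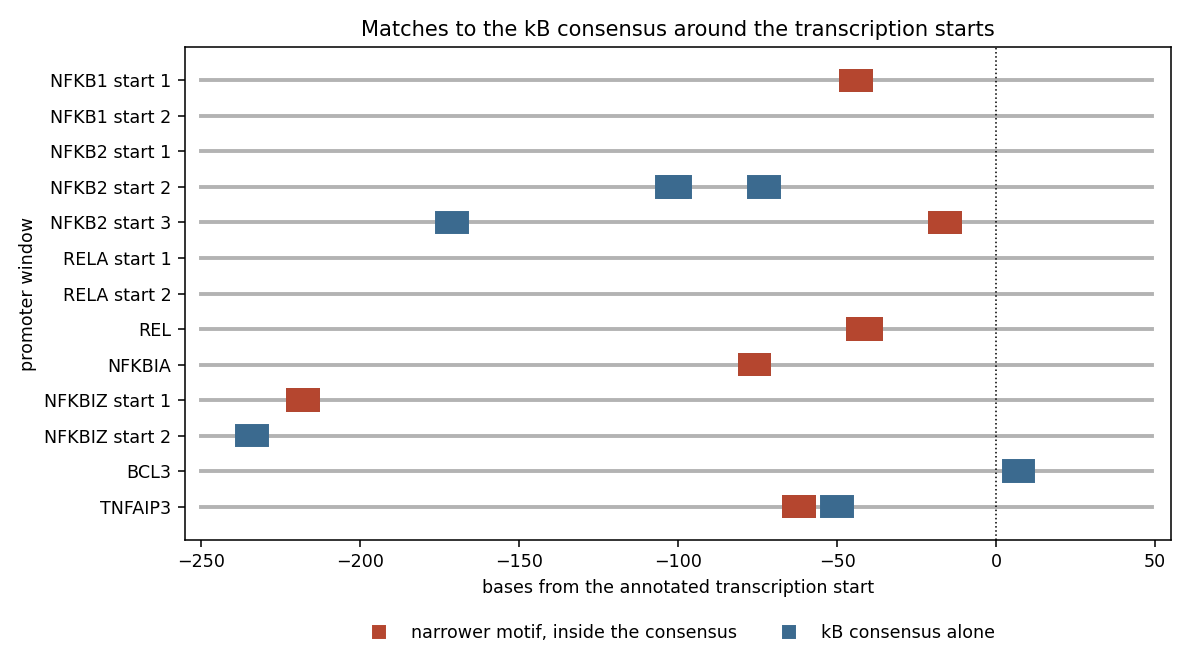
Positions of matches to the kB consensus in the 13 promoter windows, in bases from the annotated transcription start (dotted line at 0). Red blocks also match the narrower motif. TNFAIP3 and NFKBIA have matches within 100 bases before the start, as do REL, NFKB1 and NFKB2.

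On the deposited scale, 5 of the 10 genes rose in mimic cells and none fell (limma adjusted p under 0.05, Benjamini-Hochberg over 14122 genes tested). TNFAIP3 rose about 3-fold, and NFKBIZ, RELB, NFKBIA and NFKBIE rose 1.28-fold to 1.41-fold. The other 4 subunits and BCL3 did not pass. Over all genes tested 28.1% rose and 26.9% fell. Changes in either direction passed for 55% of all genes. The median log2 change of the 10 genes was 0.18, beside -0.06 over all genes tested. All 10 passed the filter on dim probe sets. In these bulk samples, fewer cells of a kind and less RNA per cell cannot be told apart.

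That count depends on the scaling of the arrays. Bacterial poly(A) RNAs are added to a sample as a control of labelling. Their log2 intensity was higher on the mimic arrays by 0.35 over 11 probe sets of the newer (r2) design, and by 0.09 over 10 probe sets of the older design. Setting the arrays to the newer set lowers every gene alike and puts the median over all genes at -0.40 (log2). It leaves 1 of the 10 genes higher (TNFAIP3) and 5 lower (NFKB1, NFKB2, RELA, REL and BCL3). Among all genes tested, 1613 were then higher and 8200 lower. With the probe sets of both designs, chosen after seeing the data, the median was -0.28. Of the 10 genes, 2 were then higher (TNFAIP3 and NFKBIZ) and 4 lower (NFKB1, NFKB2, RELA and REL). Over all genes tested, 2327 were higher and 6900 lower. With the hybridization controls, whose mean differed by -0.05, 5 of the 10 genes were higher and none lower. Over all genes tested, 4323 were higher and 3128 lower with them. Values in the following paragraphs keep the deposited scale.

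**Figure D2:**
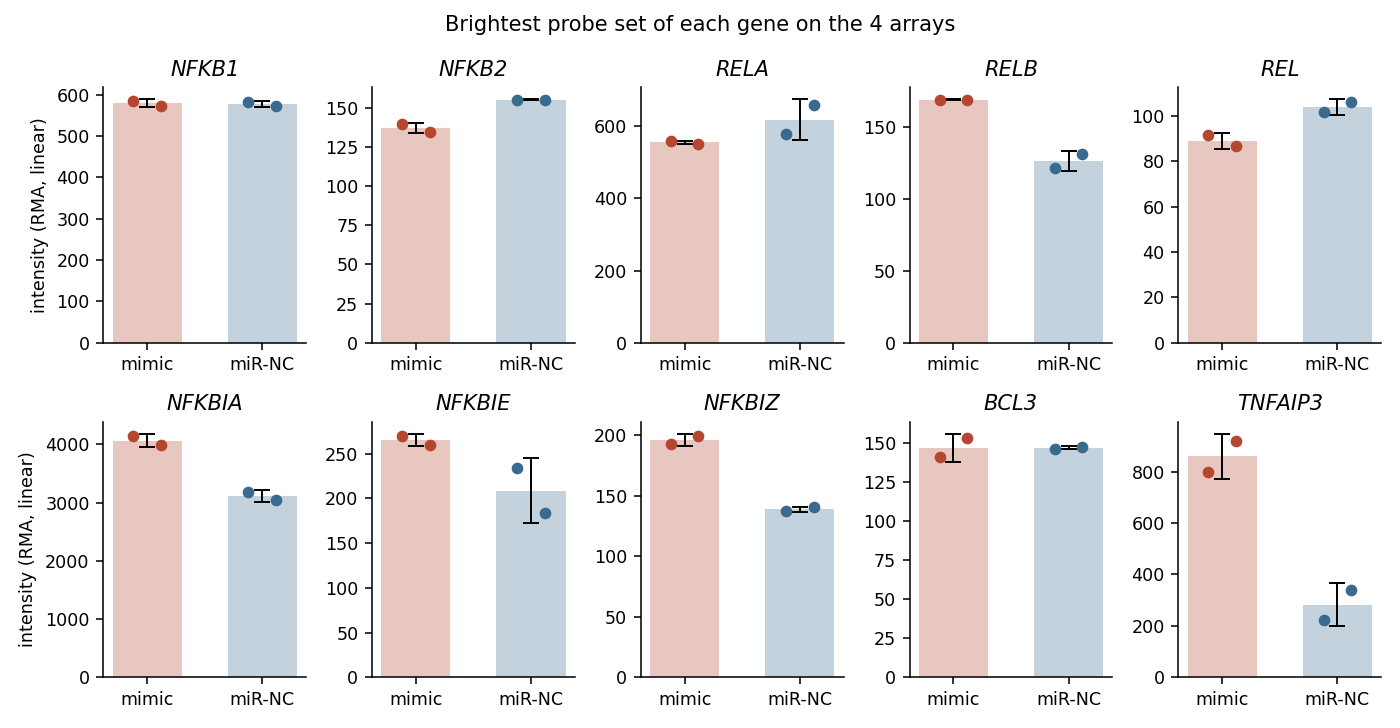
Intensity of the brightest probe set of each gene (vertical axis, linear RMA scale from 0, set separately for each gene) on the 2 mimic arrays (left) and the 2 miR-NC arrays (right). Bars are means, error bars SDs and points single arrays. Both mimic arrays lie above both miR-NC arrays for RELB, NFKBIA, NFKBIE, NFKBIZ and TNFAIP3, and below them for NFKB2, RELA and REL.

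Among the subunits, RELA and REL encode proteins with a transactivation domain, as does RELB, while NFKB1 and NFKB2 encode the precursors p105 and p100 that are processed to the DNA-binding proteins p50 and p52. RELB, which pairs mainly with p52 in the noncanonical pathway, had 169 on both mimic arrays, against 121 and 131 on the miR-NC arrays (intensity). Both mimic arrays lay above both controls. RELB rose by 0.42 ± 0.08 on the log2 scale (SE, 2 arrays per group, limma adjusted p = 0.00152), a 1.34-fold change with a 95% interval of 1.18 to 1.52. It had 1 probe set. It was at 0.075 with the newer poly(A) probe sets and 0.20 with both designs, and passed with neither.

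NFKB1 had 585 and 572 on the mimic arrays, against 583 and 572 on the miR-NC arrays. The groups overlapped almost completely. The log2 change was 0.0018 ± 0.06 (SE), with a 95% interval of -0.13 to 0.13, which is narrow beside the changes of the genes that rose. On the newer poly(A) scale NFKB1 was at -0.34 and passed.

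NFKB2 had 139 and 135 on the mimic arrays, against 155 on both miR-NC arrays. The mimic arrays were lower without overlap, but the log2 change of -0.18 ± 0.08 missed the threshold (SE, limma adjusted p = 0.0882). NFKB2 and RELB, the usual partners of the noncanonical dimer, thus had values on opposite sides of 0, and their difference in change was not tested.

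RELA, the subunit of the canonical p50 dimer, had 558 and 552 on the mimic arrays, against 578 and 658 on the miR-NC arrays. The groups did not overlap, and miR-NC replicate 2 stood above the other 3 arrays. Its log2 change was -0.15 ± 0.07 (SE, limma adjusted p = 0.0889). Without miR-NC replicate 1 it passed at -0.24, and without miR-NC replicate 2 it was at -0.06. The 2 other RELA probe sets were far dimmer, with means of 43.5 and 35.3 in mimic cells and 44.9 and 33.9 in miR-NC cells, and their groups overlapped, with log2 changes of -0.05 and 0.06.

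REL, which encodes c-Rel, a subunit best known from lymphoid cells, had 91.3 and 86.5 on the mimic arrays, against 101 and 106 on the miR-NC arrays. Its second probe set had 62.6 and 60.2 on the mimic arrays, against 66.7 and 71.0 on the miR-NC arrays. Both probe sets were lower in mimic cells without overlap, with log2 changes of -0.22 ± 0.10 and -0.17 ± 0.11 (SE), and neither passed (limma adjusted p = 0.0709 and 0.216 over 34505 probe sets). In the fit over genes the brighter one had an adjusted p = 0.0643.

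TNFAIP3 encodes A20, a ubiquitin-editing enzyme that shuts down signalling from TNF and Toll-like receptors to the IkB kinases. Its brighter probe set had 798 and 921 on the mimic arrays, against 224 and 342 on the miR-NC arrays. The lowest mimic array was more than 2-fold above the highest control, although the controls themselves differed. TNFAIP3 rose by 1.63 ± 0.15 on the log2 scale (SE, 2 arrays per group, limma adjusted p = 6.28e-06), a 3.10-fold change with a 95% interval of 2.45 to 3.93. Its dimmer probe set had 300.0 and 315 on the mimic arrays, against 99.4 and 117 on the miR-NC arrays, and rose by 1.51 ± 0.09 (limma adjusted p = 1.09e-07 over the probe sets). The change of TNFAIP3 was higher than that of 98.8% of the genes tested. Of the 10 genes it alone passed and was at least 2-fold higher in mimic cells, as were 4.76% of all genes tested. It passed under each of the 18 alternatives run, with log2 changes of 1.29 to 1.94.

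NFKBIA encodes IkB-alpha, the inhibitor that is degraded and resynthesised in each round of canonical signalling. Its brightest probe set had 4145 and 3985 on the mimic arrays, against 3186 and 3045 on the miR-NC arrays. The second had 3581 and 3453 on the mimic arrays, against 2708 and 2821 on the miR-NC arrays. The third had 1752 and 1678 on the mimic arrays, against 1266 and 1307 on the miR-NC arrays. All 3 probe sets were higher in mimic cells without overlap, by 0.38 ± 0.04, 0.35 ± 0.05 and 0.41 ± 0.05 on the log2 scale (SE), and all 3 passed. In the fit over genes the brightest probe set rose 1.30-fold, with a 95% interval of 1.22 to 1.39 (limma adjusted p = 2.45e-05). On the poly(A) scales it was at 0.038 and 0.16 and did not pass.

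NFKBIE encodes IkB-epsilon, another cytoplasmic inhibitor. It had 270 and 260 on the mimic arrays, against 234 and 183 on the miR-NC arrays, and the 2 controls stood further apart than the lower mimic array and the higher control. Its log2 change of 0.36 ± 0.11 passed the test (SE, 2 arrays per group, limma adjusted p = 0.0152). The call ended without mimic replicate 1, without mimic replicate 2 and without miR-NC replicate 2, where the log2 change was 0.33, 0.38 and 0.18.

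NFKBIZ encodes IkB-zeta, a nuclear member of the family that works as a co-regulator of a subset of target genes. It had 192 and 199 on the mimic arrays, against 137 and 140 on the miR-NC arrays. The replicates lay close together and the groups apart. NFKBIZ rose by 0.50 ± 0.08 on the log2 scale (SE, 2 arrays per group, limma adjusted p = 3.01e-04), a 1.41-fold change with a 95% interval of 1.25 to 1.60. It was at 0.15 with the newer poly(A) probe sets, where it did not pass, and at 0.27 with both designs, where it did.

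BCL3, the other nuclear IkB protein among these genes, which binds p50 and p52 dimers, had 141 and 153 on the mimic arrays, against 146 and 148 on the miR-NC arrays. The mimic arrays lay on either side of both controls. Its log2 change was -0.0012 ± 0.09 (SE), with a 95% interval of -0.19 to 0.19. A dimmer probe set was at 24.2 and 24.0 on the mimic arrays, against 24.9 and 25.7 on the miR-NC arrays, a log2 change of -0.07 ± 0.13 that did not pass. The 2 remaining BCL3 probe sets were not above the brightest control with no human target on any array and were not fitted.

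Over probe sets, 8 of the 17 fitted rose and none fell, where 27% of all 34505 probe sets rose and 23.9% fell, 51% in all. The 8 were the probe sets of TNFAIP3 (2), NFKBIA (3), RELB, NFKBIE and NFKBIZ, so that no gene with several fitted probe sets had some that passed and some that did not. By array order, 5 of the 10 genes had both mimic arrays above both controls and 3 had both below, beside 36.5% and 42.9% of all genes tested.

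**Figure D3:**
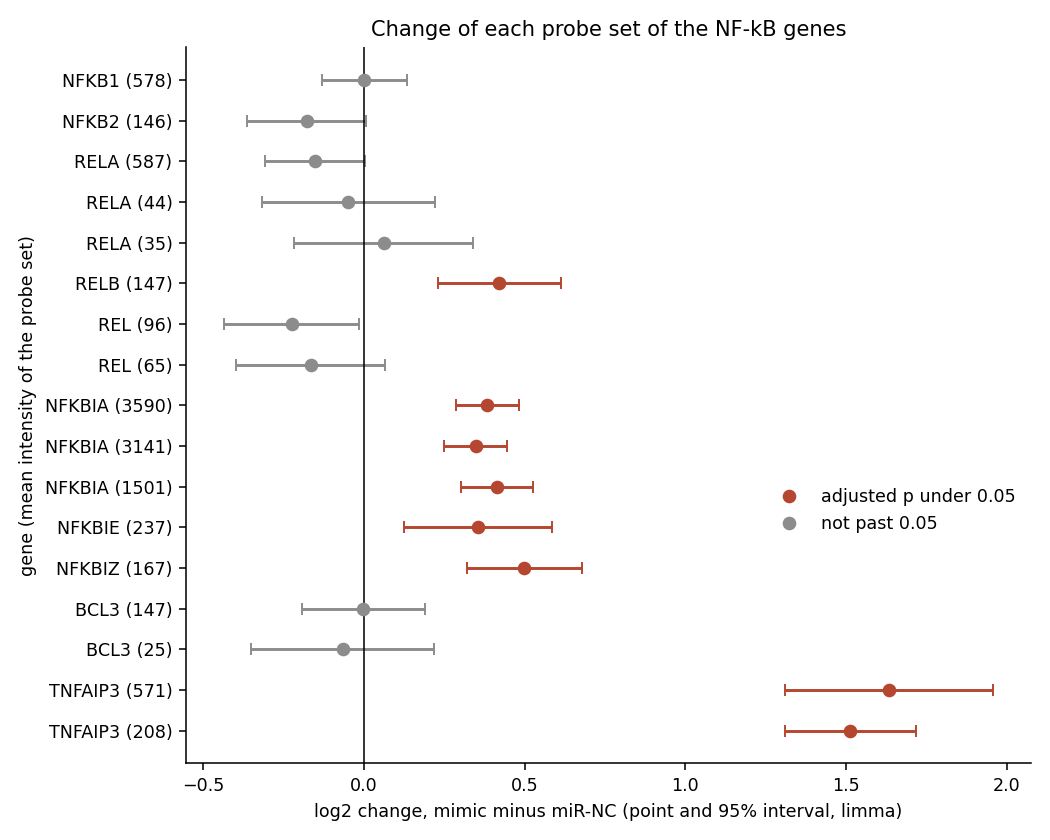
Log2 change (mimic minus miR-NC, horizontal axis) of the 17 fitted probe sets, with 95% intervals from limma. Rows are probe sets, with the mean intensity over the 4 arrays in brackets. Red points passed an adjusted p of 0.05 over all probe sets and grey points did not. The 2 TNFAIP3 probe sets, at 1.63 and 1.51, stand apart from the others.

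**Figure D4:**
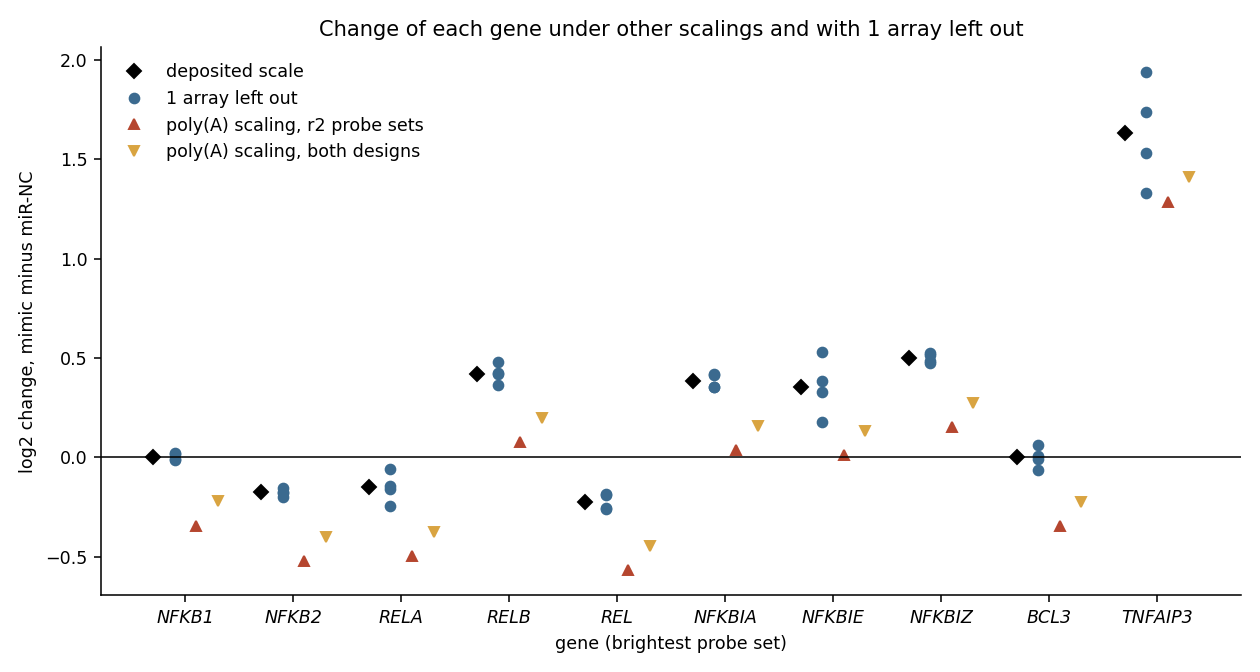
Log2 change of each gene (mimic minus miR-NC, vertical axis) on the deposited scale, with each array left out in turn, and after scaling to the poly(A) controls. TNFAIP3 stays above 1.2 throughout, while the 4 smaller rises lie at 0.15 or less on the newer poly(A) scale and the 5 other genes lie below 0 on both poly(A) scales.

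Other inhibitors and deubiquitinases of the pathway were split. Of 11 tested, 4 rose and 2 fell, with a median log2 change of 0.07. Beside this and each list below stand all genes tested, of which 28.1% rose and 26.9% fell, with a median of -0.06. CYLD, which like A20 trims the ubiquitin chains that signal to the IkB kinases, rose by 0.86 ± 0.09 on the log2 scale (SE, limma adjusted p = 1.05e-05), with 188 and 184 on the mimic arrays, against 98.0 and 107 on the miR-NC arrays. TNIP1, an A20-binding protein, was at 236 and 203 on the mimic arrays, against 462 and 426 on the miR-NC arrays. It fell by 1.02 ± 0.09 (limma adjusted p = 2.71e-06), and its 7 other probe sets above background fell too. NFKBIB, which encodes IkB-beta, fell by 0.57 ± 0.09, with 99.7 and 90.1 on the mimic arrays, against 138 and 143 on the miR-NC arrays. TNFAIP8, counted in this list although it is a TNF-induced survival gene and not a deubiquitinase or known inhibitor of the pathway, rose by 1.28 ± 0.13. USP21 (0.41) and OTULIN (0.40) passed, but not without mimic replicate 1, and 1 of 2 other OTULIN probe sets fell. Without cross-hybridizing probe sets OTULIN was at 0.91, and with the mean of its probe sets at 0.26.

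The kinases that carry the signal were listed with their partner subunits TAB1, TAB2, TAB3 and IKBKG, which are not kinases. This list changed in both directions, 4 of 12 genes higher and 4 lower, with a median of -0.17. MAP3K14 (NIK), which starts the noncanonical pathway, had 109 and 113 on the mimic arrays, against 49.6 and 52.8 on the miR-NC arrays, and rose by 1.12 ± 0.10 on the log2 scale (SE, limma adjusted p = 4.16e-06), or 0.43 with the mean of all its probe sets. None of its other probe sets had a mean intensity above background. Of the IkB kinase complex, CHUK (IKK-alpha) rose by 0.65 ± 0.14 and IKBKB (IKK-beta) fell by 0.48 ± 0.10. Both calls ended without mimic replicate 2, at 0.54 and -0.39, CHUK was at 0.40 without miR-NC replicate 1, and IKBKB was at -0.24 and did not pass with the mean of its probe sets. IKBKG, the regulatory subunit, did not pass at 0.08 ± 0.12. TAB1 (-0.75) and MAP3K3 (-0.56) fell, and TAB3 (0.50) and MAP3K7 (0.44) rose. Without cross-hybridizing probe sets TAB3 was at 0.88. TAB2 passed at -0.37 but not without cross-hybridizing probe sets (-0.07).

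Adaptors and ubiquitin ligases upstream were lower more often than higher, 13 against 6 of 25 tested, with a median of -0.31. The list held 29 genes, but RIPK1, TRAF2, BIRC3 and IRAK4 had no single-symbol probe set and were not tested. SHARPIN and RNF31, subunits of the complex that builds linear ubiquitin chains, fell by 1.64 ± 0.09 and 1.40 ± 0.11 on the log2 scale (SE). SHARPIN had 72.5 and 78.7 on the mimic arrays, against 245 and 227 on the miR-NC arrays, while its partner RBCK1 was at -0.12 and did not pass, though 2 of its 3 other probe sets fell. The interleukin 1 receptor kinase IRAK1 fell by 1.17 ± 0.07, and IRAK3, which damps the same receptors, rose by 1.48 ± 0.08, as did its 3 other probe sets above background. BTRC, the ligase subunit that recognises phosphorylated IkB, fell by 1.10 ± 0.10, and was at -0.53 with the mean of its probe sets and also without cross-hybridizing ones. TRAF3, which restrains MAP3K14, was at -1.40 in its brightest probe set and -0.19 with the mean of all, since 2 other probe sets rose. TRAF5 (0.73, or 0.43 with the mean of its probe sets) and MALT1 (0.46) rose. No other TRAF5 probe set had a mean intensity above background. TRAF3IP2 passed at 0.30 on the deposited scale and was at -0.049 with the newer poly(A) controls. With the mean of its probe sets it was at 0.15 and did not pass.

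Receptors upstream were balanced, with 5 of 16 higher, 5 lower and a median of -0.02. TNFRSF10B (0.68) and TNFRSF10A (0.66), which bind TRAIL, rose with the Toll-like receptors TLR2 (0.61) and TLR5 (0.60), of which TLR5 did not pass without mimic replicate 1 (0.41). IL17RA (-0.61), CD40 (-0.57) and TNFRSF12A (-0.52) fell. IL17RC was at -0.33 and lost its call without mimic replicate 1 (-0.34), without mimic replicate 2 (-0.32), without miR-NC replicate 1 (-0.23), with the mean of its probe sets (-0.21) and without cross-hybridizing ones (-0.15). The TNF receptor TNFRSF1A was at -0.13 and did not pass.

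Of 18 cytokine and chemokine genes known as NF-kB targets, 8 rose and 1 fell, with a median of 0.18. CCL20, a chemokine of epithelia, rose by 3.28 ± 0.08 on the log2 scale. The next largest rise was that of CXCL10, which had 135 and 268 on the mimic arrays, against 35.9 and 36.4 on the miR-NC arrays, a log2 change of 2.40 ± 0.24 (SE, limma adjusted p = 9.47e-06). The mimic replicates differed by a wide margin but both lay above the controls. CXCL8 rose by 1.51 ± 0.11, or 0.90 with the mean of its probe sets and 0.42 without those marked as cross-hybridizing. CCL2 was not above background in miR-NC cells and was at least 1.41-fold higher in mimic cells (limma adjusted p = 6.48e-04). LIF was the gene that fell (-0.29), and its call ended without mimic replicate 1 (-0.23), mimic replicate 2 (-0.35) or miR-NC replicate 1 (-0.24), with the mean of its probe sets (-0.28), without cross-hybridizing ones (-0.36) and with the hybridization controls (-0.24). TNF (0.12) and IL6 (0.27) did not pass. Without miR-NC replicate 2 the list had 14 genes that passed in place of 9.

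Of 28 survival, adhesion and other target genes, 14 rose and 9 fell, with a median of 0.22. The pentraxin PTX3 rose by 1.78 ± 0.11 on the log2 scale (SE), the surface protein CD83 by 1.52 ± 0.13 and the immunoproteasome subunit PSMB9 by 1.19 ± 0.07, or 0.72 with the mean of its probe sets. The cyclooxygenase PTGS2 fell by 1.90 ± 0.13, with 20.5 and 25.1 on the mimic arrays, against 84.9 and 84.3 on the miR-NC arrays, and the adhesion molecule ICAM1 was at -0.81 ± 0.13, which are -1.03 and -0.37 with the mean of their probe sets. No other probe set of PTGS2 or ICAM1 had a mean intensity above background. NINJ1 fell by 0.67 ± 0.09. TNIP1 and TNFAIP8 stand in this list as well as in that of the inhibitors. Some genes named from these lists rose on the deposited scale and did not pass on the newer poly(A) scale. They were USP21, OTULIN, TLR5, MALT1, TRAF5, TRAF3IP2, TAB3 and MAP3K7.

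**Figure D5:**
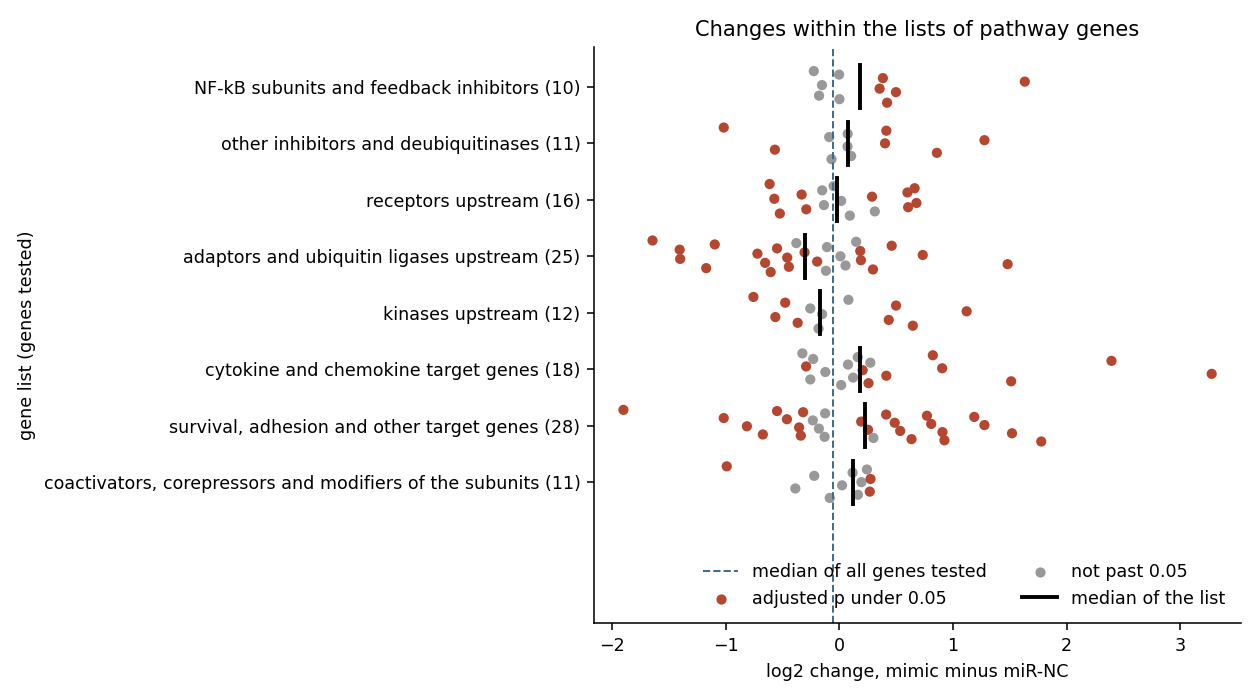
Log2 change (mimic minus miR-NC, horizontal axis) of the NF-kB genes and of 7 lists of pathway genes, with 1 point for each gene tested. Red points passed an adjusted p of 0.05 over all genes and grey points did not, black bars are list medians, and the dashed line is the median of all genes tested (-0.06). Each list but the NF-kB genes themselves holds both risen and fallen genes.

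Arrays of 1 group correlated at 0.998 (mimic) and 0.997 (miR-NC) across probe sets, and arrays of different groups at 0.978 to 0.982, where probe sets are not independent replicates. Of 9 squamous epithelial markers listed, 6 had a single-symbol probe set (KRT5, KRT14, CDH1, EPCAM, SFN and DSP). These 6 were above background on every array, and all 6 passed the test, 4 higher and 2 lower in mimic cells. The largest of these changes were those of the keratin KRT14 (0.97, log2) and of E-cadherin, CDH1 (-1.26). Of other cell types, PTPRC, the defining leukocyte marker, was at 3.69 and 3.56 on the mimic arrays, against 3.94 and 3.85 on the miR-NC arrays, under the brightest control with no human target (16.8), as were PDGFRA, COL3A1, DCN, LUM, CDH5 and ITGAM. Summed over the whole list, dim probe sets included, the 5 leukocyte markers had an intensity of 182 to 214 in mimic cells and 172 to 184 in miR-NC cells. The 5 fibroblast markers had 67.6 to 71.8 in mimic cells and 69.4 to 72.2 in miR-NC cells, and the 4 endothelial markers 104 to 121 in mimic cells and 142 to 152 in miR-NC cells. Above background on all arrays were 2 leukocyte markers (CD14 and CD68), 1 fibroblast marker (PDGFRB) and 3 endothelial markers (PECAM1, VWF and KDR). Of these 6, CD14 rose by 0.68 (log2, limma adjusted p = 6.85e-04), KDR fell by 0.73 (limma adjusted p = 0.00152) and the others did not pass, CD68 being at -0.21. The part of other cells in the changes above was not tested.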

How the data were processed

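Biotin-labelled total RNA was measured on PrimeView arrays. The authors deposited 1 intensity per probe set and array, made with RMA per the submitters' processing notes, and the values were linear, so log2 was applied here. RMA equalises the arrays, which hides any shift shared by most genes.

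Groups came from the sample titles. A probe set was named where the platform annotation gave exactly 1 symbol (44988 of 49395), and each gene took its brightest one. Genes (14122) or, in a separate fit, probe sets (34505) with a mean above the 30th percentile, an intensity of 12.0 for genes, went into limma 3.58.1 under R 4.3.3. The fit used lmFit and eBayes with a trend, two-sided, and Benjamini-Hochberg adjustment over every feature fitted, at 0.05. It had 2 residual and 8.35 prior degrees of freedom and a median SE of 0.10 (log2). A run on simulated data took its spread from this same fit, so it checked the code and not the calls. A ± on a log2 change is an SE. Background is the brightest of 20 probe sets with no human target on each array.

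The members and lists were chosen with earlier results of these data known, so list counts are descriptions. Listed genes with no single-symbol probe set, or too dim for the filter, were not tested and are not counted. Every member is named, and from each list up to 4 genes per direction with the largest change past the threshold, with NFKBIB, CHUK, IKBKB, IKBKG, MAP3K14 and BTRC in any case. TNFRSF1A, RBCK1, TNF and IL6 were named after their values were seen. An exact permutation test of 2 against 2 arrays cannot give a p below 0.333, so none is given. Alternatives covered the scaling, the filter, the choice of probe set, the spread, a replicate block, a stricter threshold and each array left out. Each was fitted anew with its own estimate of the spread, so its calls can differ through that estimate too. For TNFAIP3 the limma adjusted p was 6.28e-06 in the main fit and 9.46e-34 with the newer poly(A) controls. The number of arrays limits the precision.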

Additional observations from a re-analysis of the deposited data

How the results depend on the processing

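TNFAIP3 kept its direction and its call under all 18 alternatives. The 10 genes had 8 calls with a further quantile normalization in place of 5. Over all genes that normalization gave 7717 calls, 4061 of them lower, in place of 7768 and 3802. Lower calls, 0 on the deposited scale, numbered 3 with that normalization, 5 with the newer poly(A) controls, 4 with both designs, 1 with the 50th percentile filter, 2 with probe sets averaged per gene, 1 without a mean-variance trend, and 0 to 1 with an array left out. Higher calls were 1 and 2 on the poly(A) scales. Over all genes, higher calls were 1613 and lower calls 8200 with the newer poly(A) controls (16.4% higher, against 51.1% on the deposited scale), and 2327 and 6900 with both designs (25.2% higher). Lower calls over all genes ran from 2509 (without mimic replicate 2) to 4041 with an array left out. They numbered 3403 with the 50th percentile filter, 3636 with probe sets averaged per gene and 3724 without a mean-variance trend.

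With the newer poly(A) controls and with both designs, the log2 changes were NFKB1 -0.34 and -0.22, NFKB2 -0.52 and -0.40, RELA -0.50 and -0.38, REL -0.57 and -0.45, RELB 0.075 and 0.20, NFKBIA 0.038 and 0.16, NFKBIE 0.0091 and 0.13, NFKBIZ 0.15 and 0.27, and BCL3 -0.35 and -0.23. A further quantile normalization gave NFKB1 -0.056 and let NFKB2 (-0.23), RELA (-0.20) and REL (-0.27) pass. NFKB2 (-0.18) and REL (-0.19) also passed with probe sets averaged per gene, and REL with the 50th percentile filter and without a trend (-0.22 both). RELA was at 0.061 without cross-hybridizing probe sets. BCL3 was at 0.0064 with a shared median and 0.051 with the hybridization controls. NFKBIE missed the threshold without a trend and at 0.01 (0.36 both). With 1 array left out, log2 changes ran from -0.015 to 0.019 (NFKB1), -0.062 to 0.060 (BCL3), -0.24 to -0.059 (RELA) and 0.18 to 0.53 (NFKBIE). The cause was not tested.

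The coactivator list had 5 calls on both poly(A) scales in place of 3, and the cytokine list 6 to 14 with an array left out. HDAC2 was at -0.071 with the newer poly(A) controls and -0.080 with the mean of all probe sets, HDAC1 at -0.077 and TRAF3IP2 at -0.049 with those controls. None of the other HDAC2 probe sets in that mean was above background in mean intensity. IKBKG was at -0.27 and -0.14 on the poly(A) scales, -0.15 with probe sets averaged per gene, and -0.061 to 0.22 with an array left out. Of the dimmer RELA probe sets, 1 was at -0.28 and -0.16 on the poly(A) scales and at -0.015 to 0.14 with an array left out, and the other at 0.0042 with the hybridization controls and -0.16 to 0.064 with an array left out.

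Replicate numbers did not pair the arrays (same-number deviations correlated at 0.05 over probe sets). With the replicate block the 10 genes had 5 calls, and none of their calls changed. Over all genes the block gave 8253 calls in place of 7768.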

Other observations

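Among 11 coactivators, corepressors and modifiers of the NF-kB subunits that were tested, 2 rose and 1 fell, with a median log2 change of 0.12. CREBBP, an acetyltransferase that joins RELA at target promoters, fell by 0.99 ± 0.08 on the log2 scale (SE, limma adjusted p = 1.68e-06), as did its 2 other probe sets above background, while its relative EP300 was at 0.24 and did not pass. The histone deacetylases HDAC1 and HDAC2 rose by 0.27 ± 0.05 and 0.28 ± 0.10 on the deposited scale. With the newer poly(A) controls they were at -0.08 and -0.07, and neither passed. HDAC2 lost its call without mimic replicate 1 (0.37), without mimic replicate 2 (0.18) and without miR-NC replicate 1 (0.12). HDAC1 lost its call with probe sets averaged per gene (0.038) and without cross-hybridizing ones (0.16).

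The changes of the NF-kB genes relative to the median gene do not depend on a shift of whole arrays. On that footing TNFAIP3 stood 1.69 above the median gene (log2), NFKBIZ 0.56, RELB 0.48, NFKBIA 0.44 and NFKBIE 0.41, NFKB1 0.06 and BCL3 0.06, and RELA -0.09, NFKB2 -0.12 and REL -0.17. EP300 was named after its value was seen.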
